A study of Homo sapiens with 18 samples.

Results

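Ribosome biogenesis factors are the proteins that transcribe, modify, cut and fold ribosomal RNA and assemble it with ribosomal proteins, without staying in the finished ribosome. A list of 49 such genes was followed here: 5 of RNA polymerase I and its regulator, 4 of box C/D ribonucleoproteins with their chaperone, 3 of box H/ACA ribonucleoproteins, 18 of small subunit assembly, 15 of large subunit assembly and 4 nucleolar proteins with roles in several steps. A gene was measured by a probe set annotated to it alone, and by the one with the highest mean over all arrays where it had several. In this way 44 of the 49 genes were measured, out of 18417 genes that the arrays measure in this way. NOP56, DDX18, PPAN, EBNA1BP2 and GNL3 have no probe set annotated to them alone, and their levels are not given.

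Ribosomes are made mainly in the nucleolus, where RNA polymerase I transcribes the ribosomal DNA into a long precursor. Small nucleolar ribonucleoproteins guide 2′-O-methylation (box C/D) and pseudouridylation (box H/ACA) of that RNA, while the small subunit processome and the large subunit assembly factors cleave and fold it. The pathway is most active in growing cells, and many of its genes are known targets of the transcription factor MYC.

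RNA was measured on 18 Affymetrix whole-transcript gene arrays in NB4, an established human acute promyelocytic leukemia line that matures towards neutrophils under all-trans retinoic acid (ATRA). Each of 6 groups held 3 biological replicates: untreated wild-type cells, wild-type cells after 1 µM ATRA for 48 h or 72 h, and cells labelled TG2 knockout (called knockout here) that were untreated or had ATRA for 48 h or 72 h. TG2 is transglutaminase 2, encoded by TGM2. How the knockout line was made and whether it is 1 clone are not stated in the labels, its sample codes carry the letters KD, and no label ties a replicate to a separate culture. Values are deposited signals on a scale taken as log2, so a difference of 1 is a factor of 2.

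The TGM2 signal checks the labels. It was 6.40, 6.27 and 6.61 in untreated wild-type and 6.30, 6.51 and 6.36 in untreated knockout arrays, then 12.54, 12.19 and 12.39 in wild-type and 11.61, 10.87 and 11.25 in knockout arrays at 72 h. It was thus lower in knockout than in wild-type cells at 72 h (−1.13 ± 0.19, SE, adjusted p = 0.0267), yet it rose in both. Of 7 measured promyelocytic markers, MPO and PRTN3 had group means of at least 11.99 everywhere, while 12 markers of T, B, erythroid, epithelial and fibroblast cells had group means between 3.70 (DCN) and 7.78 (EPCAM), a range that also held ELANE. CTSG went from a mean of 9.58 in untreated to 7.10 in 72 h wild-type cells, and CEBPE from 7.86 to 9.67. At 72 h 5 of the 7 promyelocytic markers rose and 2 fell in wild-type cells and 3 rose and 2 fell in knockout cells. Of the 12 markers of other cell types 3 rose and 1 fell in wild-type and 3 rose and 2 fell in knockout cells. The part of these markers in the results on the members was not tested. Signals spread less widely on ATRA arrays: the distance from the 5th to the 95th percentile of a whole array was 7.95 to 8.02 in untreated arrays and 6.92 to 7.58 in ATRA arrays. The leading principal component (57.12% of the variance) set ATRA arrays apart from untreated ones, and 4 ATRA arrays lay nearer to the untreated side: replicate 1 of wild-type cells at 48 h, replicates 1 and 3 of knockout cells at 48 h, and replicate 2 of knockout cells at 72 h.

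Most ribosome biogenesis factors had lower signals after ATRA, in both genotypes. In wild-type cells 32 of 44 fell and 2 rose at 48 h, and 36 fell and none rose at 72 h (34 and 38 at an unadjusted p under 0.05, against 15982 and 17372 of all probe sets), in limma's test with Benjamini-Hochberg adjustment over all 33297 probe sets (called at an adjusted p under 0.05). In knockout cells 28 fell and 1 rose at 48 h, and 31 fell and 1 rose at 72 h. The median change of the 44 genes was −0.69 and −0.90 in wild-type and −0.56 and −0.60 in knockout cells, at 48 h and 72 h. UTP20, POLR1B and UTP15 had the lowest changes at 72 h in wild-type cells (4.27-fold, 4.17-fold and 4.08-fold lower), and NPM1 was the only member called higher in more than 1 comparison.

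The share of all probe sets called lower was 19.6% and 21.0% in wild-type cells and 19.9% and 19.2% in knockout cells at 48 h and 72 h, and the share called higher was 19.3%, 23.1%, 21.5% and 22.8% in the same order. Across the whole array the median probe set changed by 0.10, 0.12, 0.14 and 0.13. A change of at least 2-fold downwards, also called, was seen in 14, 18, 10 and 12 members, against 8.25%, 9.39%, 7.98% and 7.44% of all probe sets. All 3 ATRA arrays lay below all 3 untreated arrays for 34, 36, 30 and 33 members, against 26.4%, 27.2%, 24.2% and 24.6% of all probe sets.

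The members are bright, with mean signals from the 74.9th (UTP15) to the 99.06th percentile (NPM1) of all probe sets, and bright probe sets tended to have lower values on ATRA arrays (median change −0.27 in the brightest of 4 equal classes of probe sets and 0.39 in the dimmest, in wild-type cells at 72 h). Among 5506 other single-gene probe sets in the same range of means (7.95 to 11.94), 44.2% and 47.7% were called lower in wild-type cells and 47.4% and 44.4% in knockout cells, at 48 h and 72 h. Their median changes were −0.32, −0.36, −0.37 and −0.31, and 13.9%, 16.8%, 14.9% and 13.9% of them were called at least 2-fold lower. Forcing all arrays to 1 distribution by quantile normalization left 27 and 32 members called lower in wild-type and 16 and 20 in knockout cells. It put 3 and 2 members higher in wild-type and 4 and 5 in knockout cells, so the counts in knockout cells depend more on the scaling than those in wild-type cells do. In bulk RNA, a lower signal from all cells and a loss of the cells with the highest signal cannot be told apart.

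**Figure D1:**
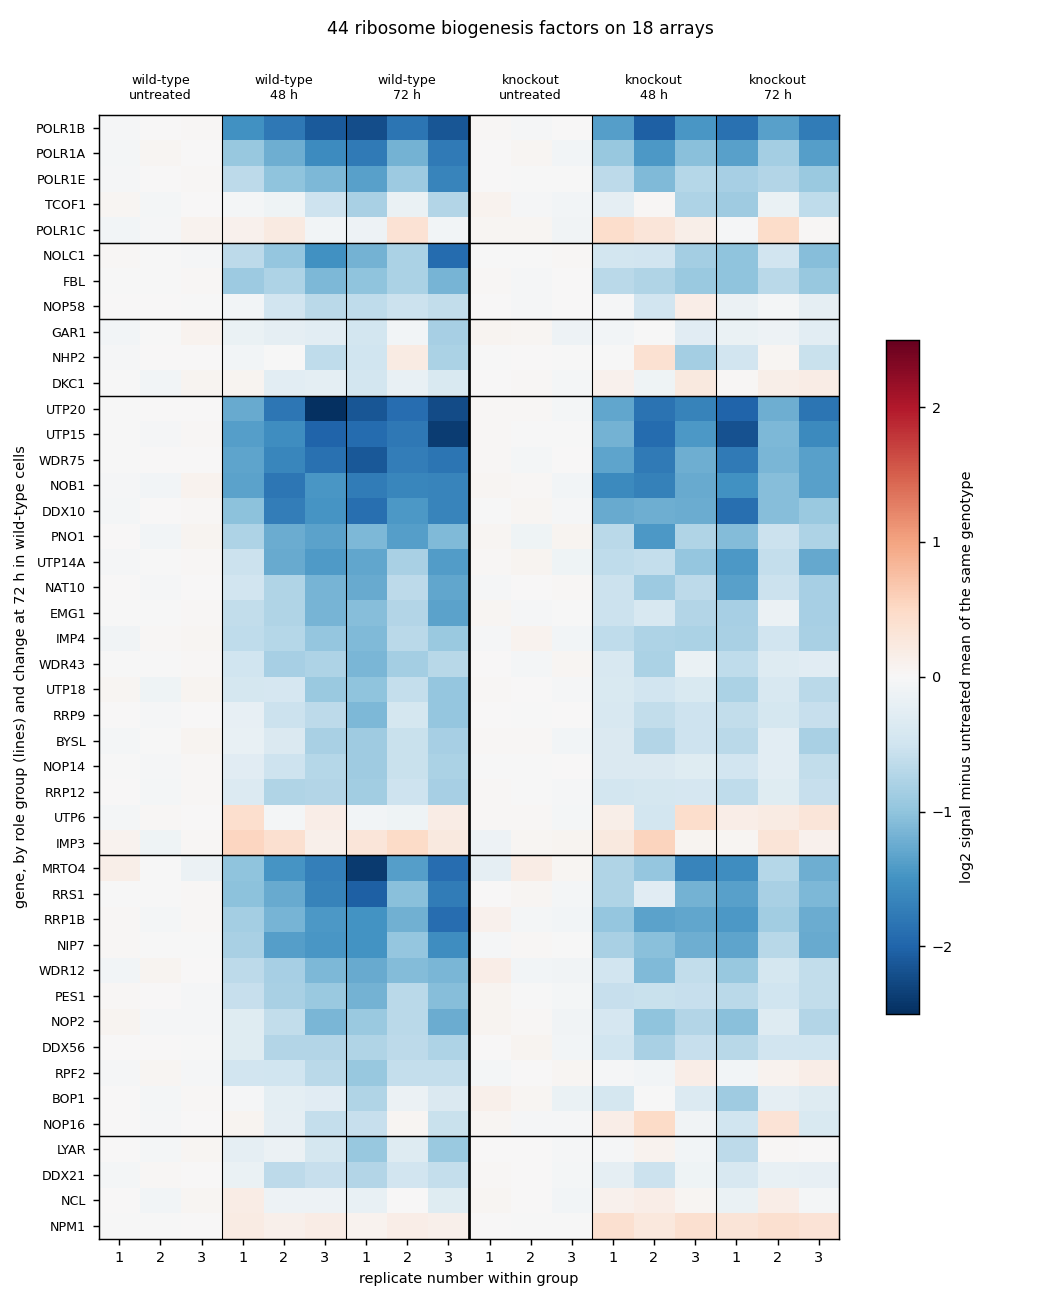
Log2 signal minus the untreated mean of the same genotype, for 44 genes (rows, by role group) on 18 arrays (columns, by group and replicate number). Blue is lower and red higher than untreated. Most rows are blue on all 12 ATRA arrays, while UTP6, IMP3, POLR1C, NCL and NPM1 stay pale or turn red.

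RNA polymerase I makes the ribosomal RNA precursor. Of its 5 genes, 3 fell at 48 h and 4 at 72 h in both genotypes. POLR1B encodes the second largest subunit, part of the catalytic centre. In wild-type cells POLR1B read 9.66, 9.70 and 9.71 untreated, 8.17, 7.90 and 7.59 after 48 h and 7.47, 7.87 and 7.55 after 72 h. In knockout cells it read 9.75, 9.70 and 9.73 untreated, 8.34, 7.68 and 8.27 at 48 h and 7.86, 8.36 and 7.98 at 72 h. Every ATRA array lay more than 1 unit below the untreated ones, and POLR1B changed by −2.06 ± 0.18 (SE) in wild-type and −1.66 ± 0.18 in knockout cells at 72 h (adjusted p = 3.3e-07 and 3.7e-06), which is 4.17-fold and 3.16-fold lower.

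POLR1A encodes the largest subunit. Its wild-type arrays read 9.84, 9.92 and 9.88 untreated, 8.93, 8.65 and 8.31 at 48 h and 8.12, 8.70 and 8.12 at 72 h. Its knockout arrays read 9.97, 10.01 and 9.88 untreated, 9.01, 8.51 and 8.91 at 48 h and 8.59, 9.11 and 8.57 at 72 h. The groups did not overlap, and the changes at 72 h were −1.57 ± 0.19 and −1.20 ± 0.19 (adjusted p = 8.35e-06 and 0.000137). POLR1E, a subunit that acts in initiation and elongation, read 8.83, 8.86 and 8.89 untreated, 8.21, 7.85 and 7.73 at 48 h and 7.51, 7.96 and 7.20 at 72 h in wild-type cells. Its knockout values were 8.76, 8.75 and 8.75 untreated, 8.09, 7.65 and 8.04 at 48 h and 7.92, 8.02 and 7.82 at 72 h. It too was lower on every ATRA array, with changes of −1.30 ± 0.17 and −0.83 ± 0.17 at 72 h (adjusted p = 1.65e-05 and 0.0011).

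TCOF1, the nucleolar protein treacle that supports ribosomal DNA transcription, had changes of −0.22 and −0.33 at 48 h that were not called (adjusted p = 0.436 and 0.236). At 72 h its changes of −0.57 and −0.56 had adjusted p just inside the threshold (0.0425 and 0.0476). They were called in 11 of 18 alternative fits in wild-type cells (−0.77 to −0.28) and in 10 of 18 in knockout cells (−0.76 to −0.28), and leaving out any single untreated array ended either call. POLR1C, a subunit shared with RNA polymerase III, did not follow the others. It read 8.75, 8.79 and 8.89 in untreated and 8.69, 9.17 and 8.75 in 72 h wild-type arrays, while knockout arrays read 8.98, 8.99 and 8.85 untreated and 8.91, 9.40 and 8.97 at 72 h. At 48 h the values were 8.91, 9.03 and 8.75 in wild-type and 9.37, 9.25 and 9.08 in knockout arrays. The wild-type groups overlapped, and no POLR1C change was called (adjusted p from 0.117 to 0.759), though quantile normalization put it higher in knockout cells (0.59 at 48 h and 0.43 at 72 h, adjusted p = 0.00426 and 0.0302).

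Box C/D ribonucleoproteins carry the methyltransferase fibrillarin. All 3 measured genes of this group fell in wild-type cells at both times, against 1 in knockout cells at 48 h and 2 at 72 h. FBL, fibrillarin itself, was 10.99, 10.99 and 11.02 in untreated wild-type arrays, 10.10, 10.22 and 9.88 at 48 h and 9.99, 10.20 and 9.83 at 72 h. In knockout arrays FBL was 11.03, 10.97 and 11.01 untreated, 10.32, 10.25 and 10.07 at 48 h and 9.99, 10.33 and 10.06 at 72 h. No ATRA array reached an untreated one. FBL fell by nearly the same amount in both lines at 72 h (−0.99 ± 0.12 and −0.88 ± 0.12, adjusted p = 5.22e-06 and 2.31e-05), and the difference of these responses was 0.12 with a 95% interval of −0.23 to 0.46.

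NOLC1, a chaperone of small nucleolar ribonucleoproteins, varied more between replicates. Its wild-type values were 11.07, 11.03 and 11.00 untreated, 10.38, 10.07 and 9.52 at 48 h and 9.85, 10.25 and 9.11 at 72 h. Its knockout values were 10.97, 10.96 and 11.00 untreated, 10.51, 10.50 and 10.12 at 48 h and 9.98, 10.49 and 9.91 at 72 h. All ATRA arrays were lower than untreated ones, and replicate 3 was the lowest array in every ATRA group. NOLC1 changed by −1.30 ± 0.24 and −0.85 ± 0.24 at 72 h (adjusted p = 0.000498 and 0.0111), while its change in knockout cells at 48 h was not called (−0.60, adjusted p = 0.0598). NOP58, a core protein of the same particle, read 10.54, 10.53 and 10.52 in untreated and 10.46, 10.05 and 9.86 in 48 h wild-type arrays, then 9.89, 9.99 and 9.92 at 72 h. The fall at 72 h was called (−0.60 ± 0.15, adjusted p = 0.00389), and that at 48 h (−0.41, adjusted p = 0.0383) was called in 9 of 18 alternative fits and lost without replicate 2 or 3 of that group (−0.37 and −0.28) or any untreated array. In knockout arrays NOP58 read 10.44, 10.40 and 10.43 untreated, 10.39, 9.94 and 10.58 at 48 h and 10.28, 10.37 and 10.20 at 72 h. The 3 knockout arrays at 72 h all lay above the 3 wild-type ones, but neither this contrast (0.35, adjusted p = 0.385) nor the difference of responses (0.46, adjusted p = 1) was called.

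Box H/ACA ribonucleoproteins carry the pseudouridine synthase dyskerin, and their genes had small changes. None of the 3 was called at 48 h in either genotype or at 72 h in knockout cells (0 at an unadjusted p under 0.05), and 2 fell at 72 h in wild-type cells. DKC1, which encodes dyskerin, read 10.12, 10.07 and 10.20 in untreated wild-type arrays, 10.20, 9.87 and 9.89 at 48 h and 9.68, 9.94 and 9.75 at 72 h. Knockout arrays read 10.10, 10.12 and 10.04 untreated, 10.20, 9.97 and 10.33 at 48 h and 10.12, 10.24 and 10.28 at 72 h. Every wild-type array at 72 h was below the untreated mean and every knockout array was above it. The changes were −0.34 ± 0.11 (adjusted p = 0.0213) and 0.13 ± 0.11 (adjusted p = 0.375), and their difference of 0.47 was not called (adjusted p = 1). The fall in wild-type cells was called in 12 of 18 alternative fits (−0.42 to −0.03). It was lost with quantile normalization, with scaling to 1 SD, and without replicate 1 or 3 of the 72 h (−0.29 and −0.32) or of the untreated arrays (−0.35 and −0.31). In knockout cells DKC1 was called higher at 48 h and 72 h with quantile normalization (0.30 and 0.36, adjusted p = 0.0182 and 0.00723) and with scaling to 1 SD (0.36 and 0.45, adjusted p = 0.00695 and 0.00158).

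GAR1, a further core protein of these particles, read 8.41, 8.47 and 8.56 untreated, 8.32, 8.25 and 8.21 at 48 h and 8.02, 8.41 and 7.65 at 72 h in wild-type cells. In knockout cells it read 8.60, 8.58 and 8.40 untreated, 8.45, 8.52 and 8.24 at 48 h and 8.37, 8.40 and 8.26 at 72 h. Values at 72 h overlapped the untreated ones in both genotypes, and GAR1 was called lower in wild-type cells (−0.45 ± 0.15, adjusted p = 0.0207), where replicate 3 was the lowest array. Without that replicate the change was −0.27 (adjusted p = 0.124), and without replicate 3 of the untreated wild-type arrays it was −0.41 (adjusted p = 0.0735). GAR1 was called there in 13 of 18 alternative fits (−0.65 to −0.19). NHP2, the third protein of the particle, was not called in any ATRA comparison (−0.24, −0.36, −0.16 and −0.33), and its other probe set was not called either.

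Of 18 small subunit assembly factors, 16 fell in each of the 4 ATRA comparisons, and the 2 that did not were UTP6 and IMP3. The scaling moved these counts. With quantile normalization 13 and 16 were called lower in wild-type and 7 and 9 in knockout cells, at 48 h and 72 h, and with each array scaled to 1 SD 11 and 16 in wild-type and 7 and 10 in knockout cells. At 48 h in knockout cells the 9 not called under either scaling were RRP9, NOP14, UTP14A, UTP18, WDR43, EMG1, NAT10, RRP12 and BYSL. UTP20 is a large scaffold protein of the processome, the particle that forms on the nascent precursor. UTP20 was 9.30, 9.31 and 9.31 in untreated wild-type arrays, 8.04, 7.50 and 6.61 at 48 h and 7.17, 7.40 and 7.07 at 72 h. In knockout arrays UTP20 was 9.36, 9.37 and 9.28 untreated, 8.04, 7.50 and 7.66 at 48 h and 7.33, 8.12 and 7.51 at 72 h. All 12 ATRA arrays were more than 1 unit below the untreated ones, with wild-type 48 h replicate 3 the lowest. It changed by −2.09 ± 0.27 and −1.68 ± 0.27 at 72 h (adjusted p = 1.39e-05 and 0.000138), 4.27-fold and 3.21-fold lower.

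UTP15 and WDR75 belong to the transcription-linked subcomplex of the processome (t-UTP, UtpA). UTP15 read 9.10, 9.08 and 9.14 untreated, 7.73, 7.55 and 7.10 at 48 h and 7.18, 7.32 and 6.74 at 72 h in wild-type cells. In knockout cells UTP15 read 9.10, 9.05 and 9.05 untreated, 7.88, 7.15 and 7.63 at 48 h and 6.89, 7.95 and 7.47 at 72 h. It was lower on every ATRA array, with changes of −2.03 ± 0.24 and −1.63 ± 0.24 at 72 h (adjusted p = 6.07e-06 and 6.45e-05). WDR75 read 10.13, 10.14 and 10.15 untreated, 8.83, 8.50 and 8.28 at 48 h and 8.02, 8.42 and 8.32 at 72 h in wild-type cells. Its knockout arrays read 10.16, 10.07 and 10.14 untreated, 8.80, 8.35 and 8.90 at 48 h and 8.35, 8.99 and 8.77 at 72 h. Again no ATRA array came within 1 unit of the untreated ones, and the changes at 72 h were −1.89 ± 0.18 and −1.42 ± 0.18 (adjusted p = 5.83e-07 and 1.3e-05).

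The other 13 falling factors ranged at 72 h from −1.68 (NOB1) to −0.74 (RRP12) in wild-type cells and from −1.32 (NOB1) to −0.41 (WDR43) in knockout cells. NOB1, the endonuclease that makes the final cut to mature 18S RNA, had the smallest adjusted p among members at 72 h in wild-type cells (1.66e-07), and its partner PNO1 changed by −1.20 and −0.80. DDX10, an RNA helicase, changed by −1.65 and −1.30. The modifying enzymes NAT10, an acetyltransferase, and EMG1, a methyltransferase, changed by −1.07 and −1.05 in wild-type and by −0.91 and −0.60 in knockout cells. IMP4, which binds the U3 small nucleolar RNA complex, changed by −0.90 and −0.70. RRP9, a protein of the U3 particle, changed by −0.84 and −0.55.

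UTP6, a member of the UtpB subcomplex of the processome, was 9.58, 9.65 and 9.64 in untreated and 9.56, 9.51 and 9.80 in 72 h wild-type arrays. In knockout arrays it was 9.67, 9.68 and 9.59 untreated and 9.82, 9.86 and 9.94 at 72 h. At 48 h UTP6 ranged widely, with 10.05, 9.58 and 9.78 in wild-type and 9.79, 9.18 and 10.09 in knockout arrays. Its change at 72 h in wild-type cells was 0.00 ± 0.17 and it was called in no ATRA comparison (adjusted p from 0.302 to 1). IMP3, the partner of IMP4 in the U3 complex, read 8.77, 8.57 and 8.70 untreated and 9.22, 9.09 and 8.81 at 48 h in wild-type cells, where all 3 ATRA arrays lay above the untreated ones. It rose by 0.36 ± 0.14 there with an adjusted p close to the threshold (0.048), and its changes of 0.34, 0.29 and 0.16 in the other ATRA comparisons were not called. The rise at 48 h in wild-type cells was called in 8 of 18 alternative fits (0.27 to 0.63). It was not called with each array centred on its median, without replicate 1 or 2 of that group or without any of the untreated arrays, and with quantile normalization IMP3 was called higher in all 4 comparisons.

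Of 11 measured large subunit assembly factors, 9 were called lower at both times in wild-type cells, as were 8 at 48 h and 9 at 72 h in knockout cells. The scaling moved these counts too. With quantile normalization 8 and 9 were called lower in wild-type and 5 and 6 in knockout cells, at 48 h and 72 h. With each array scaled to 1 SD these were 7 and 9 in wild-type and 6 and 5 in knockout cells, with 1 called higher at each time in knockout cells. MRTO4 is a nuclear relative of the ribosomal stalk protein P0 and helps to mature the pre-60S particle. MRTO4 was 9.96, 9.81 and 9.67 in untreated wild-type arrays, 8.81, 8.34 and 8.11 at 48 h and 7.42, 8.43 and 7.91 at 72 h. In knockout arrays MRTO4 was 9.67, 10.08 and 9.94 untreated, 9.14, 8.93 and 8.24 at 48 h and 8.34, 9.18 and 8.68 at 72 h. No group under ATRA overlapped its untreated group, and at 72 h the 3 wild-type arrays spread over about 1 unit. The changes at 72 h were −1.89 ± 0.28 and −1.16 ± 0.28 (adjusted p = 4.62e-05 and 0.00317), with a difference of 0.73 (95% interval −0.09 to 1.55) that was not called (adjusted p = 1).

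RRS1 works with RPF2 to bring the 5S ribonucleoprotein into the pre-60S particle. Wild-type arrays read 9.23, 9.23 and 9.27 untreated, 8.21, 7.99 and 7.58 at 48 h and 7.21, 8.19 and 7.50 at 72 h. Knockout arrays read 9.22, 9.26 and 9.16 untreated, 8.47, 8.93 and 8.04 at 48 h and 7.85, 8.41 and 8.09 at 72 h. RRS1 fell at both times, with changes of −1.61 ± 0.24 and −1.10 ± 0.24 at 72 h (adjusted p = 6.45e-05 and 0.00195), and the groups did not overlap. Its change at 48 h in knockout cells (−0.73, adjusted p = 0.0233) was called in 11 of 18 alternative fits (−0.96 to −0.28), and not without replicate 1 or 3 of that group (−0.73 and −0.51) or untreated replicate 1 or 2 (−0.73 and −0.71). RRP1B, a nucleolar protein of the 60S pathway, read 10.17, 10.09 and 10.17 untreated, 9.30, 8.98 and 8.70 at 48 h and 8.64, 8.95 and 8.23 at 72 h in wild-type cells. Its knockout values were 10.30, 10.15 and 10.12 untreated, 9.23, 8.85 and 8.89 at 48 h and 8.75, 9.33 and 8.95 at 72 h. It was lower on all 12 ATRA arrays, with changes at 72 h of −1.54 ± 0.19 and −1.18 ± 0.19 (adjusted p = 8.14e-06 and 0.000127).

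The PeBoW complex (PES1, BOP1 and WDR12) processes the precursor of 28S and 5.8S RNA. WDR12 and PES1 fell in all 4 comparisons, with changes of −1.16 and −0.97 in wild-type and −0.67 and −0.60 in knockout cells at 72 h. BOP1 was called lower at 72 h in knockout cells (−0.48, adjusted p = 0.0397) and not in wild-type cells (−0.42, adjusted p = 0.064). The call in knockout cells held in 12 of 18 alternative fits (−0.61 to −0.21) and not without replicate 1 of that group or untreated replicate 1 or 2. A second probe set for BOP1, with a lower mean, was called lower in all 4 comparisons (−0.48, −0.76, −0.64 and −0.72, in the order wild-type 48 h, wild-type 72 h, knockout 48 h and knockout 72 h). NIP7 changed by −1.34 and −1.09, the RNA methyltransferase NOP2 by −0.95 and −0.70, and the helicase DDX56 by −0.73 and −0.56 at 72 h, all called lower. In knockout cells at 72 h the calls of NOP2 and PES1 were lost with quantile normalization. Those of NOP2, WDR12 and DDX56 were lost there with scaling to 1 SD, and that of NOP2 also without replicate 1 of that group.

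NOP16, a further protein of the 60S pathway, had the smallest change of this group in wild-type cells at 72 h. It read 8.53, 8.50 and 8.53 untreated, 8.58, 8.30 and 7.92 at 48 h and 7.94, 8.57 and 7.96 at 72 h in wild-type arrays. Knockout arrays read 8.57, 8.48 and 8.49 untreated, 8.67, 8.99 and 8.43 at 48 h and 8.02, 8.85 and 8.14 at 72 h. Replicate 2 was the highest array at 72 h in both genotypes and reached the untreated level, so the groups overlapped and no change was called (adjusted p from 0.193 to 0.54).

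Of the 4 nucleolar proteins with roles in several steps, DDX21 and LYAR fell in wild-type cells at 72 h, NPM1 rose in 3 of the 4 ATRA comparisons and NCL passed the test in none of them. NPM1, nucleophosmin, is an abundant chaperone of the outer nucleolus, and its probe set is the brightest of the 44. Wild-type arrays read 11.82, 11.83 and 11.85 untreated, 12.03, 11.97 and 12.01 at 48 h and 11.92, 12 and 11.96 at 72 h. Knockout arrays read 11.72, 11.71 and 11.71 untreated, 12.12, 11.98 and 12.12 at 48 h and 12.03, 12.11 and 12.06 at 72 h. All 12 ATRA arrays lay above the untreated arrays of their genotype. The rise was called at both times in knockout cells (0.36 ± 0.06 and 0.35 ± 0.06, adjusted p = 0.000189 and 0.000232) and at 48 h in wild-type cells (0.17 ± 0.06, adjusted p = 0.0341), but not at 72 h there (0.13 ± 0.06, adjusted p = 0.0966). In knockout cells NPM1 was called higher in all 18 alternative fits at both times (0.27 to 0.79 and 0.31 to 0.85). The rise at 48 h in wild-type cells held in 9 of 18 (0.14 to 0.60) and was lost with each array centred on its median, without replicate 1 or 3 of that group (0.16 and 0.17) and without any of the untreated arrays. A pair of other bright NPM1 probe sets was called higher in all 4 comparisons, while a dim one (mean 5.36) was called in none.

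NCL, nucleolin, was called in none of the 4 comparisons (−0.03, −0.16, 0.11 and −0.02). Scaling each array to 1 SD put NCL higher in all 4 (0.29 to 0.52), so its direction depends on the scaling. DDX21, a helicase that couples ribosomal RNA transcription and processing, read 11.30, 11.37 and 11.36 untreated, 11.17, 10.69 and 10.76 at 48 h and 10.62, 10.87 and 10.74 at 72 h in wild-type cells. In knockout cells DDX21 read 11.32, 11.30 and 11.24 untreated, 11.07, 10.75 and 11.18 at 48 h and 10.88, 11.11 and 11.08 at 72 h. It was below untreated on all 12 arrays, but the change was called in wild-type cells (−0.60 ± 0.13 at 72 h, adjusted p = 0.0012) and missed the threshold in knockout cells (−0.26 ± 0.13, adjusted p = 0.104). With each array scaled to 1 SD the change in knockout cells was 0.16. The difference of these responses was 0.34 (95% interval −0.04 to 0.71) and was not called.

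LYAR, a zinc finger protein that acts in precursor processing, read 9.65, 9.61 and 9.69 untreated, 9.43, 9.51 and 9.21 at 48 h and 8.71, 9.32 and 8.72 at 72 h in wild-type cells. In knockout cells it read 9.61, 9.61 and 9.58 untreated, 9.57, 9.69 and 9.53 at 48 h and 8.95, 9.62 and 9.60 at 72 h. Replicates 2 and 3 of knockout cells at 72 h stayed at the untreated level while replicate 1 was near the wild-type ones. LYAR fell in wild-type cells at 72 h (−0.73 ± 0.17, adjusted p = 0.00279), and its change of −0.21 ± 0.17 in knockout cells was not called and was 0.06 with quantile normalization.

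**Figure D2:**
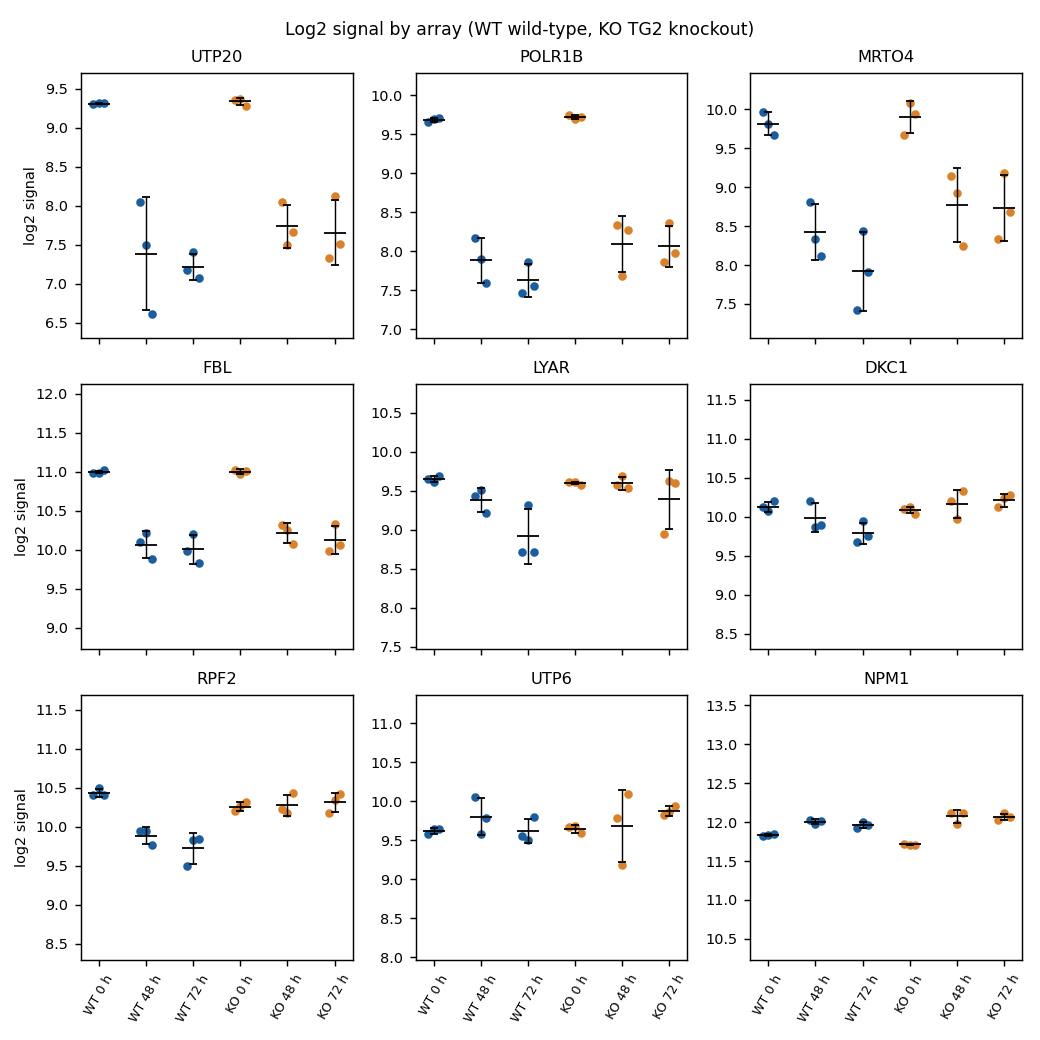
Log2 signal (vertical axes, all of equal span in units but with different centres) of 9 genes on each array, by group (0 h is untreated), with the mean and SD of 3 arrays as bars. UTP20, POLR1B, MRTO4 and FBL are lower in every ATRA group of both genotypes, and NPM1 is higher after ATRA. RPF2, DKC1, UTP6 and NPM1 have all wild-type points below all knockout points at 72 h, UTP6 and NPM1 by a narrow gap.

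Between 48 h and 72 h no member was called in either genotype in the main fit, which takes no account of replicate numbers. Of all probe sets 0.0% were called in wild-type and 0.0% in knockout cells. In wild-type cells 4 members had an unadjusted p under 0.05 (1952 of all 33297 probe sets) and all 44 had lower means at 72 h than at 48 h (47.5% of all), with a median of −0.20 (0.01 over all probe sets). In knockout cells none had an unadjusted p under 0.05 (2732 of all), and 31 of 44 had lower means (47.4% of all), with a median of −0.05 (0.01 over all probe sets).

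The knockout and wild-type lines were compared next, where an effect of TG2 and any other difference between the lines cannot be told apart. In untreated cells none of the 44 was called (percent called over all probe sets 0.00601%) and none had an unadjusted p under 0.05 (382 of all probe sets did). At 48 h none was called (0.021% over all), 3 had an unadjusted p under 0.05 (1972 of all) and 39 had a higher mean in knockout cells (52.8% of all probe sets). Between arrays of the same number at 48 h, 19, 26 and 42 members were higher in the knockout array, so these 39 rest largely on replicate 3. At 72 h RPF2 was called higher in knockout cells (0.0961% over all), 20 members had an unadjusted p under 0.05 (3713 of all 33297) and 43 had a higher mean there (51.5% of all probe sets). With the replicate number as a block the count at 72 h was also 20 (4008 of all). With the block and the 72 h arrays alone it was 27 (3323 of all). With the block and the untreated arrays alone it was 6 (3867 of all), and with the 48 h arrays alone 5 (1494 of all). The main fit takes the spread jointly from all groups. A member's median SD was 0.038 and 0.049 in the untreated groups and 0.216 to 0.264 in the ATRA groups. The main fit's counts in untreated and ATRA cells are therefore not on an equal footing. The median difference at 72 h was 0.35, against 0.03 for the 5506 probe sets of like brightness and 0.01 for all probe sets. All 3 knockout arrays lay above all 3 wild-type arrays in 10 members at 72 h (6.65% of all probe sets), namely NOP58, DKC1, UTP6, PNO1, NOB1, PES1, WDR12, RPF2, NPM1 and DDX21, and in 4 at 48 h (3.79%), namely POLR1C, PES1, RPF2 and LYAR. In untreated cells 6 members had all knockout arrays above (8.84% of all probe sets), namely TCOF1, RRP9, NOP14, NAT10, BOP1 and NIP7, and 6 had them all below (9.3%). Those below were POLR1E, NOP58, EMG1, WDR43, RPF2 and NPM1. For NOP58, RPF2 and NPM1, which lay above at 72 h, the difference of responses thus includes a lower untreated level in knockout cells (−0.177 for RPF2 and −0.12 for NPM1).

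The responses to ATRA were also set against each other. At 72 h 30 members were called lower in both genotypes, 6 in wild-type cells alone (NOP58, DKC1, GAR1, RPF2, DDX21 and LYAR), 1 in knockout cells alone (BOP1) and 7 in neither. The placements of RPF2 and BOP1 depend on the probe set used. Their second probe sets were called lower at 72 h in both genotypes (−1.79 and −0.98 for RPF2, −0.76 and −0.72 for BOP1, in wild-type and knockout cells). The shares of all probe sets called lower in both or in 1 genotype were not counted, so this split is not read as a result about the members. The difference of response was called for no member at 48 h (0.003% of all probe sets) or at 72 h (0.0% of all probe sets), with 2 and 8 members at an unadjusted p under 0.05 (960 and 1553 of all). At 72 h the change was less negative or more positive in knockout cells for 42 of 44 members (53.4% of all probe sets), with a median difference of 0.32 against 0.02 over all probe sets. Both contrasts at 72 h share the 6 arrays of that time, so these counts are not separate evidence.

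**Figure D3:**
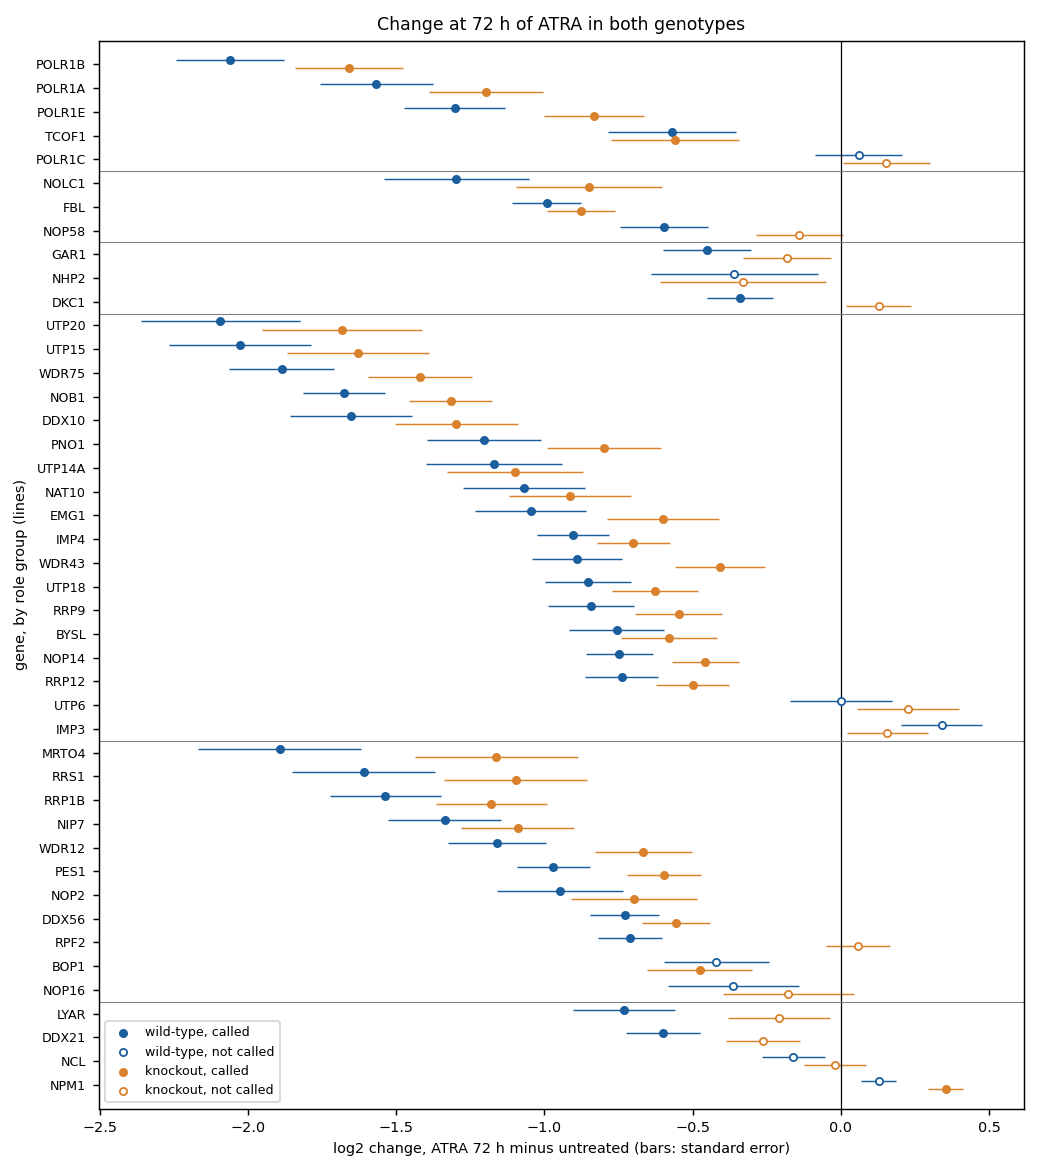
Change in log2 signal from untreated to 72 h of ATRA (horizontal axis, bars are standard errors from the fit) for 44 genes by role group, in wild-type (blue) and knockout cells (orange), with filled points for called changes. Points lie mostly left of 0, and the knockout point lies right of the wild-type point in 42 genes.

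RPF2, the partner of RRS1 in bringing in the 5S ribonucleoprotein, was the member called between genotypes. Wild-type arrays read 10.41, 10.49 and 10.40 untreated, 9.95, 9.94 and 9.76 at 48 h and 9.49, 9.83 and 9.84 at 72 h. Knockout arrays read 10.20, 10.26 and 10.31 untreated, 10.22, 10.18 and 10.43 at 48 h and 10.18, 10.34 and 10.42 at 72 h. The wild-type signal fell below untreated on all 6 ATRA arrays, while the knockout arrays stayed around their untreated level. The contrast at 72 h was 0.59 ± 0.11 (95% interval 0.36 to 0.82, adjusted p = 0.0483), and the difference of responses was 0.77 ± 0.15 (adjusted p = 0.649). The call at 72 h was lost with centring on the median, without trend, with robust moderation, with weights per group and with the 72 h arrays alone (adjusted p = 0.0567, 0.0863, 0.0562, 0.15 and 0.643). It was lost too without wild-type 72 h replicate 1 or 3 (0.48 and 0.65) and without any of the 3 knockout 72 h arrays (0.66, 0.58 and 0.54). With the replicate block and the 72 h arrays alone the adjusted p was 0.2.

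A second RPF2 probe set, dimmer with a mean of 8.94, differed from the first in level and in response. It read 9.64, 9.73 and 9.85 untreated and 7.69, 8.11 and 8.04 at 72 h in wild-type arrays. In knockout arrays it read 9.89, 9.81 and 9.66 untreated and 8.82, 8.77 and 8.84 at 72 h. This probe set fell in both genotypes at 72 h (−1.79 and −0.98, adjusted p = 1.46e-08 and 9.93e-06) and was higher in knockout than in wild-type cells at that time (0.86, adjusted p = 0.00801). The 2 probe sets thus differ on whether RPF2 fell in knockout cells, and both put it higher in knockout than in wild-type cells at 72 h. RefSeq lists pseudogene copies of RPF2 and of NHP2, and the place in the genome that each probe set reads was not used here, so the signals of these 2 genes are uncertain. Among members' probe set numbers, the one used for RPF2 (chromosome 6) lies between those of NCL (chromosome 2) and RRP1B (chromosome 21). The second RPF2 number comes next after that of POLR1C (chromosome 6). The one used for NHP2 (chromosome 5) lies between those of DDX21 and NOLC1 (both chromosome 10). What each probe set reads was not tested.

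Array by array, the median change of the 44 members from the untreated mean of their genotype was −0.48, −0.74 and −0.93 in wild-type cells at 48 h and −1.04, −0.66 and −0.96 at 72 h. It was −0.46, −0.58 and −0.64 in knockout cells at 48 h and −0.82, −0.42 and −0.66 at 72 h. Of the 4 arrays nearer the untreated ones, wild-type 48 h replicate 1, knockout 48 h replicate 1 and knockout 72 h replicate 2 had the smallest shift of their groups, and knockout 48 h replicate 3 had the largest of its group. Between arrays of the same number at 72 h, the median difference of knockout minus wild-type over the 44 members was 0.235, 0.29 and 0.375, and 38, 41 and 44 members were higher in the knockout array. At 48 h the median differences were 0.0, 0.09 and 0.36, with 19, 26 and 42 members higher. In untreated cells they were 0.04, 0.05 and −0.045, with 28, 27 and 11 members higher. The median SD of a member between replicates was 0.038 and 0.049 in untreated wild-type and knockout cells and 0.216 to 0.264 in the ATRA groups. Without the 4 arrays nearest the untreated ones, 2 members were called higher in knockout than in wild-type cells at 72 h and the median difference was 0.22.

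**Figure D4:**
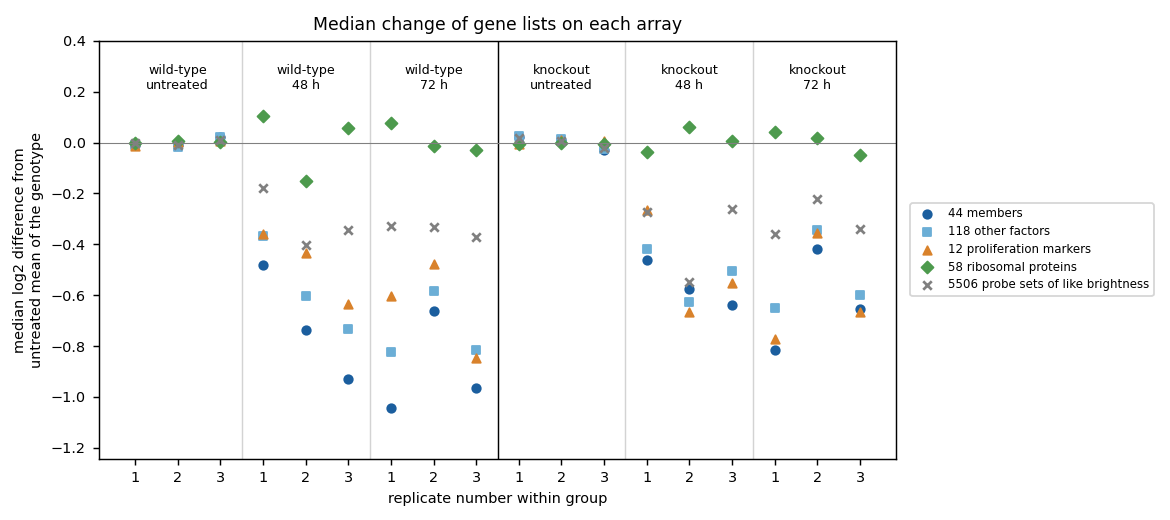
Median log2 difference from the untreated mean of the same genotype (vertical axis) on each of 18 arrays, for 44 members, 118 other biogenesis factors, 12 proliferation markers, 58 ribosomal proteins and 5506 probe sets of like brightness. Members lie between −1.04 and −0.42 on ATRA arrays, and ribosomal proteins between −0.15 and 0.10.

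Other genes of the pathway were taken from 4 further lists with 122 genes, of which 118 were measured. At 72 h in wild-type cells 86 fell and 2 rose, with a median of −0.76. Of all probe sets 21.0% fell and 23.1% rose there, and of those of like brightness 47.7% and 16.1%. In knockout cells 72 fell and 5 rose (19.2% and 22.8% of all probe sets, 44.4% and 14.2% of those of like brightness). Among other RNA polymerase I genes and their factors, 12 of 17 fell in wild-type cells, led by the shared polymerase subunit POLR2H (−1.60), the TATA-binding protein TBP (−1.26) and POLR1F (−1.10). Among other small nucleolar ribonucleoprotein genes, 7 of 11 fell, led by the assembly factors NAF1 (−2.75), NUFIP1 (−1.98) and SHQ1 (−1.65). Of the other small subunit factors, 32 of 42 fell, led by WDR3 (−1.93), the methyltransferase DIMT1 (−1.73) and NOL10 (−1.72), and TSR3 rose (0.47). Of the other large subunit factors, 35 of 48 fell, led by NOC3L (−2.15), CCDC86 (−1.98) and PAK1IP1 (−1.97), and NOP53 rose (0.26). In the comparison of genotypes at 72 h none of these 118 was called, 41 had an unadjusted p under 0.05 (3713 of all 33297 probe sets) and the median was 0.28.

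The ribosomal proteins themselves, the building blocks that these factors assemble, split in direction. Of 58 measured genes for cytosolic ribosomal proteins (79 listed), 20 rose and 16 fell at 72 h in wild-type cells, with a median of 0.05 and a range from −0.86 (RPL8) to 1.05 (RPL13). In knockout cells 21 rose and 12 fell. Of all probe sets 23.1% rose and 21.0% fell in wild-type and 22.8% and 19.2% in knockout cells at that time. Many ribosomal protein genes have processed pseudogenes, and 21 of the 79 had no probe set of their own.

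Markers of proliferation were lower as well. Of 12 measured, 8 fell at 72 h in each genotype, with a median of −0.59 in wild-type cells, and the largest falls there were in the cyclin-dependent kinase CDK1 (−1.22), the checkpoint kinase BUB1 (−1.18) and the replication helicase subunit MCM3 (−1.13). Their median difference between genotypes at 72 h was −0.02, with none at an unadjusted p under 0.05. Their part in the members' fall was not tested.

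MYC, a transcription factor that drives many genes of this pathway, read 11.41, 11.47 and 11.41 untreated, 10.81, 10.42 and 10.32 at 48 h and 10.14, 10.70 and 10.30 at 72 h in wild-type cells. In knockout cells MYC read 11.44, 11.51 and 11.54 untreated, 10.97, 10.80 and 10.78 at 48 h and 10.33, 10.96 and 10.89 at 72 h. It was lower on every ATRA array, with changes of −1.05 ± 0.16 and −0.77 ± 0.16 at 72 h (adjusted p = 9.55e-05 and 0.00153). The genotypes did not differ beyond the test's threshold in MYC at 72 h (0.35, 95% interval −0.002 to 0.695, adjusted p = 0.45).

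**Figure D5:**
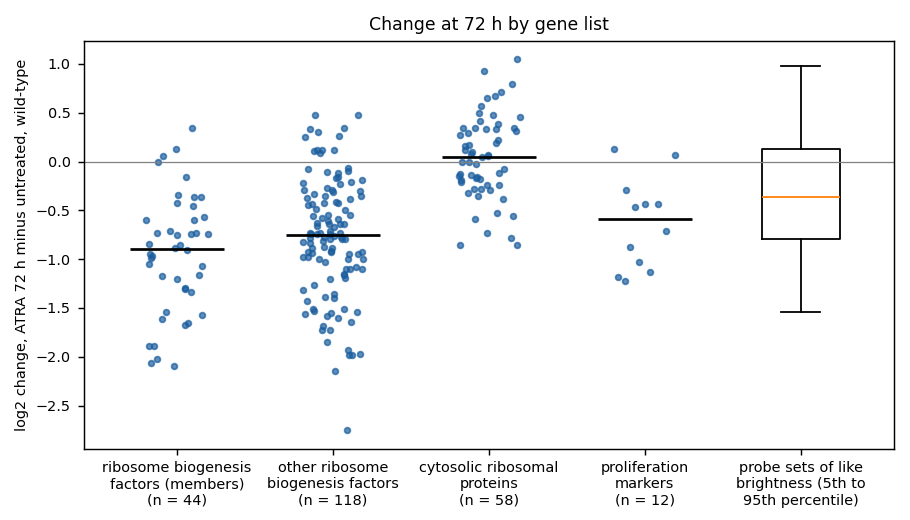
Change in log2 signal from untreated to 72 h of ATRA in wild-type cells (vertical axis), one point per gene, for 4 gene lists with their medians as lines, beside a box of 5506 probe sets of like brightness (quartiles and median, whiskers at the 5th and 95th percentiles). Both lists of biogenesis factors have medians near the lower edge of the box, at −0.90 and −0.76, and ribosomal proteins centre near 0.

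Since MYC and its partner MAX bind the E-box CACGTG, this motif was looked for in RefSeq promoter windows (GRCh38.p14) that run from 250 bases before to 50 bases after a transcription start. The motif is its own reverse complement, so a match counts for both strands. Of the 49 members 39 are in the promoter table, and 19 of these (48.7%) had the motif in at least 1 window. It was found in 10.9% of 15842 protein-coding genes of the table and in 14.7% of 4414 genes whose probe sets are of like brightness. It was found in 28.3% of 106 other biogenesis factors, in 30.0% of 10 proliferation markers and in 6.35% of 63 ribosomal protein genes. The windows of UTP20, MRTO4 and FBL are shown. Of the members with the motif whose values are given on every array, these had the largest changes at 72 h in wild-type cells. The 3 genes belong to different steps and were lower on every ATRA array. The motif is in capitals in the sequences, which are printed 5′ to 3′ along the gene's strand.
UTP20 (chr12:101279855-101280154, plus strand, motif from base −10): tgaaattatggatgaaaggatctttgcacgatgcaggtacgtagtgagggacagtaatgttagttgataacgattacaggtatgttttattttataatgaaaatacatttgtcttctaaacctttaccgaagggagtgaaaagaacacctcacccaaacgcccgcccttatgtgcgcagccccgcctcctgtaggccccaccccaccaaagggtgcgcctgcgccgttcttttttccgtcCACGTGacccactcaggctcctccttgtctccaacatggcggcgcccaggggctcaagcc
MRTO4 (chr1:19251555-19251854, plus strand, motif from base 15): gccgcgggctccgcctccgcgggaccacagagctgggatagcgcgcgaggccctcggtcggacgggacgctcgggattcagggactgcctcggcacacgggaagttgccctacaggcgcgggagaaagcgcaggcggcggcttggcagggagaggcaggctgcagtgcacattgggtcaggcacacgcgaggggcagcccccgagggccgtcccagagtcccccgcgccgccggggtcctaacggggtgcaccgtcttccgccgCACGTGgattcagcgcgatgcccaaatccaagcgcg
FBL (chr19:39846330-39846629, minus strand, motif from base 7): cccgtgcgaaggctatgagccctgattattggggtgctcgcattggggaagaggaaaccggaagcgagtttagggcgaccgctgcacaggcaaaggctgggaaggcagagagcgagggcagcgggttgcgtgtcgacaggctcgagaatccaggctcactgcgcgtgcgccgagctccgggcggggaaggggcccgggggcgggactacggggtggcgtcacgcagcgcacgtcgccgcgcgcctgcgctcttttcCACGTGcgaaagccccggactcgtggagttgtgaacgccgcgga
Positions are counted from the transcription start. At 72 h in wild-type cells all 17 measured members with the motif were called lower, and 11 of 18 measured members without it. The median changes of both sets were close, at −0.90 (range −2.09 to −0.45) with the motif and −0.89 (range −2.06 to 0.34) without it. POLR1B, UTP15 and WDR75, among the members that fell most, had no match in their windows, and neither had POLR1C, UTP6, IMP3, NCL and NPM1. A match to 6 letters is a description of the window, and binding of any factor was not measured here.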

How the data were processed

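Signals of 33297 probe sets on 18 arrays were analysed as the authors deposited them, on a scale taken as log2 from the range of the values (0.73 to 13.56). Per the labels, 300 ng of total RNA was labelled per array. The background correction and normalization behind them are not stated in the labels. With limma 3.58.1 in R 4.3.3, group means were estimated jointly over the 18 arrays and moderated by eBayes with a trend. Tests were 2-sided, with Benjamini-Hochberg adjustment over all probe sets. P-values measure the spread between these arrays only. The fit was tested on simulated data with independent arrays, 1 SD per probe set in all groups and changes set in the 72 h wild-type group alone. The unequal spread of the real groups and the likeness of arrays of the same number were not part of it. Members, role groups and other lists were chosen with earlier results of these data known. Values on every array are given for up to 3 called members per role group with the largest change at 72 h in wild-type cells (2 in groups of under 5), for the one with the smallest, and for members called the other way or between genotypes. IMP3 was added after its values were seen, and NCL is given by its changes.

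At 72 h, arrays of the same number in both genotypes deviated together from their group means (r across probe sets 0.1029, 0.1603 and 0.1384), so replicate numbers were taken to pair these arrays. Wild-type arrays of the same number at 48 h and 72 h also deviated together (0.095, 0.1369 and 0.1856). In knockout cells these values were −0.0274, −0.0025 and 0.0507. Alternatives were other normalizations, filters, moderation, probe set choices, a replicate block and leaving out arrays.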

Additional observations from a re-analysis of the deposited data

Results flagged for a closer look

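DKC1 at 72 h was the member in which every array of 1 genotype moved one way and every array of the other genotype the opposite way. Against the untreated mean, the wild-type arrays changed by −0.45, −0.19 and −0.38 and the knockout arrays by 0.03, 0.15 and 0.19. The difference of the responses was 0.467 ± 0.158 (SE, unadjusted p = 0.00915 from limma), and it did not pass adjustment over all probe sets (adjusted p = 1). The wild-type change of −0.34 was −0.08 with quantile normalization and −0.03 with scaling to 1 SD, and the knockout change of 0.13 was 0.36 and 0.45, so the size on each side depends on the scaling.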

How the results depend on the processing

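Of 213 counts of called members under other settings, 199 stayed within 1.5 times the reported count. The 213 include the comparisons between times, between genotypes and of responses, where the reported count was 0 or 1. Counts that small had little room to move, so the 199 say little about the ATRA comparisons. Of 1531 changes of single genes 1412 kept their direction and side of the threshold. Members called in each of 18 alternatives numbered 23 of 34 and 30 of 36 in wild-type cells and 17 of 29 and 18 of 32 in knockout cells, at 48 h and 72 h. The replicate block gave 34, 37, 30 and 32 called members in these comparisons, and with it RPF2 stayed the 1 member called between genotypes at 72 h, whereas the block with the 72 h arrays alone (added after the data were seen) called 0. Between genotypes at 72 h the count was also 0 with median centring, eBayes without trend, robust eBayes, weights per group and only the groups compared, it was 0 to 2 with 1 array left out (2 without wild-type replicate 2, otherwise 0), and 2 without the 4 arrays nearest the untreated ones. Leaving out those 4, also decided after seeing the data, gave 3 members called between 48 h and 72 h in knockout cells (1 higher, 2 lower); a group left with 1 array is then assumed to vary like the others. Scaling each array to 1 mean and SD gave 23 and 31 members lower in wild-type and 17 and 19 in knockout cells (15.7%, 17.2%, 16.2% and 16.1% of all probe sets). It put 4 and 3 members higher in wild-type and 6 and 5 in knockout cells (16.8%, 18.8%, 16.9% and 16.5% of all probe sets). Quantile normalization turned the direction of NOP58 (0.083 at 48 h, 0.061 at 72 h), GAR1 (0.162 and 0.084), NOP16 (0.080 at 72 h) and LYAR (0.056 at 72 h) in knockout cells, and of GAR1 (0.041), DKC1 (0.095) and LYAR (0.01) at 48 h in wild-type cells. Scaling to 1 SD turned NOP58 (0.183 and 0.205), GAR1 (0.026 at 48 h), LYAR (0.043 at 72 h) and DDX21 (0.086 and 0.162) in knockout cells, and DKC1 (0.14 at 48 h) in wild-type cells. Median centring turned UTP6 (−0.04) and RPF2 (−0.06) at 48 h in knockout cells. The mean of its probe sets put RPF2 at −0.42 and −0.46 there. Without the 4 arrays, changes at 48 h in knockout cells were −0.12 for DKC1, −0.47 for UTP6 and −0.077 for RPF2. With 1 array left out, the change of POLR1C at 72 h in wild-type cells ranged from −0.09 to 0.15. In knockout cells at 48 h that of NOP58 ranged from −0.258 to 0.062, that of UTP6 from −0.162 to 0.293 and that of RPF2 from −0.057 to 0.068, and at 72 h that of LYAR from −0.325 to 0.01. Causes of these turns were not tested. No background measure was used, so how near to background a signal lies is not given.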
